A study of Mus musculus with 2 samples.

Results

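The 45 genes described here belong to 3 programmes that cells switch on within minutes to hours of inflammatory or proteotoxic stress. They were taken by name from the 32285 features of the count matrices. The first set holds 16 genes of the NF-kB pathway and its feedback, the second 18 immediate-early genes, and the third 11 heat shock genes, and all 45 are among the features of both matrices. They were followed across cell classes and across a sham and a splenectomy library of CD45+ cells from mouse hearts. Both groups were wild type male C57BL/6J mice aged 8 weeks whose left anterior descending coronary artery was closed for 60 min and then reopened for 24 h, so both carry the infarct and they differ by removal of the spleen or sham surgery. CD45 marks leukocytes, and the cells were enriched for it with magnetic beads. Each group holds 1 library, how many animals went into a library is not known from the labels, and no test between the groups was possible. A difference between the libraries therefore cannot be told apart from a difference between animals or preparations.

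NF-kB is a family of dimeric transcription factors (Rela, Relb, Rel and the products of Nfkb1 and Nfkb2) held in the cytoplasm by inhibitors of the IkB family. Signals from Toll-like, IL-1 and TNF receptors destroy the inhibitor, and the freed dimers transcribe cytokines together with their own brakes, among them the inhibitor Nfkbia, the ubiquitin-editing enzyme Tnfaip3 (A20), its partner Tnip1 and the RNA-degrading enzyme Zc3h12a (regnase-1). Immediate-early genes need no new protein for their induction: Fos and Jun family members pair to form AP-1, Egr, Klf and Nr4a genes encode further transcription factors, Dusp genes encode phosphatases that end MAP kinase signalling, and Zfp36 encodes tristetraprolin, which destroys cytokine mRNAs. Heat shock genes encode chaperones that hold and refold proteins, and their inducible members answer to the factor HSF1, which binds arrays of the heat shock element.

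The sham library held 6210 barcodes with 53512625 unique molecular identifiers (UMIs, counts of single mRNA molecules) and the splenectomy library 5087 barcodes and 48024013 UMIs. The filters kept 5838 and 4805 cells. The median kept cell had 4972 and 7265 UMIs, of which 1.12% and 1.80% were mitochondrial, and 9 barcodes occurred in both libraries. Cells were placed in classes by the UMIs of marker genes. Neutrophil-like cells numbered 2287 in the sham and 1577 in the splenectomy library, monocyte-like cells 1492 and 1524, and macrophage-like cells 1166 and 982. Monocyte-like and macrophage-like cells form a range cut by a score, not separate types: 313 and 264 of the monocyte-like cells and 234 and 216 of the macrophage-like cells lay near a cut. In monocyte-like cells the median rate of macrophage markers was 47.9 and 45.4 per 10000 UMIs, against 253 and 241 in macrophage-like cells. The sort left 80 and 76 endothelial cell-like cells, which express no CD45. Levels are UMIs of a gene over all UMIs of the class, scaled as CPM. Pairs of values give the sham library first and the splenectomy library second. The kit counts 3′ ends, so a level does not grow with gene length. Each interval printed is an exact 95% interval of the UMI or cell count. It covers counting error alone and no difference between animals. Intervals of UMI counts also leave out the spread from cell to cell, so they are too narrow where few cells hold many UMIs. Overlap of classes refers to these intervals alone.

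Stretches of promoter are shown to give the letters through which these programmes are known to be read. RefSeq promoter windows of 300 bases (GRCm38.p6, 250 before to 50 after a start) were matched for 37 of the 45 genes. Nfkbiz, Nfkb1, Relb, Egr1, Ier2, Hspa8, Hsp90aa1 and Hsp90ab1 had no entry. The NF-kB consensus, searched on both strands, lay in the windows of 8 of 13 matched genes of the NF-kB set (Bcl3, Nfkb2, Nfkbia, Nfkbie, Rel, Tnfaip2, Tnfaip3 and Tnip1). It was in 62.5% of their 16 windows against 8.46% of all 32851 windows, in 25% of 16 immediate-early windows and in 30.8% of 13 heat shock windows. The 250 bases before the starts of Nfkbia (chr12:55492648-55492897, minus strand) and Tnfaip3 (chr10:19015411-19015660, minus strand) are printed 5′ to 3′ because these are feedback genes whose RNA levels varied together over cells, with matches to the consensus in capitals:
Nfkbia: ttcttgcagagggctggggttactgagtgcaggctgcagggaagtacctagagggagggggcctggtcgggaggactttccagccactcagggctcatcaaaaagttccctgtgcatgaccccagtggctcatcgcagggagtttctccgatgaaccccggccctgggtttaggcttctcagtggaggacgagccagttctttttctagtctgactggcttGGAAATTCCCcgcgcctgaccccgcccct
Tnfaip3: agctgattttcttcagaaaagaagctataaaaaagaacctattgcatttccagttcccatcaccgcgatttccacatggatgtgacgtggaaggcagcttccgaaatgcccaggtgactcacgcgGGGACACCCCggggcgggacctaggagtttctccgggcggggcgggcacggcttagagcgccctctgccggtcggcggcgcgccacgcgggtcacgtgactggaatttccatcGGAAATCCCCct

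A heat shock element (inverted repeats of GAA and TTC, searched on both strands) lay in the windows of 3 of 8 matched heat shock genes, Hspd1, Hspe1 and Hsph1. It was in 4 of the 13 heat shock windows (30.8%), against 0.603% of all windows. Hspd1 and Hspe1 encode the chaperonin Hsp60 and its co-chaperonin Hsp10 of mitochondria. Their genes lie head to head on chromosome 1 (Hspd1 at 55077835 to 55088243 on the minus strand, Hspe1 at 55088132 to 55091307 on the plus strand, mm10), and 285 bases of their windows are shared, so that 1 stretch was counted for both. The 250 bases before the start of Hspe1 (chr1:55087898-55088147, plus strand, GRCm38.p6) are shown because both genes stood lower in 1 comparison below. The capitals mark 2 overlapping heat shock elements, whose last bases also overlap a match to the NF-kB consensus:
Hspe1: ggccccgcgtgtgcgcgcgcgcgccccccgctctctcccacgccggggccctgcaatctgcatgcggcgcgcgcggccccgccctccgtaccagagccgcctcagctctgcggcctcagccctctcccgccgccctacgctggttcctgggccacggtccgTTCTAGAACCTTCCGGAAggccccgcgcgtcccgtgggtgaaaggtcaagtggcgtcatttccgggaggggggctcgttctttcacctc

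The AP-1 motif TGANTCA lay in windows of 3 NF-kB genes (Nfkb2, Nfkbie and Tnfaip3), 0 immediate-early genes and 1 heat shock gene (Bag3). It was in 18.75%, 0% and 7.69% of the windows of these sets, against 7.81% of all windows. The cyclic AMP response element TGACGTCA lay in Btg2 and Dusp1, 12.5% of the immediate-early windows against 1.79% of all. The CArG box, read by serum response factor, lay in Zfp36 alone among the matched genes, 6.25% of the immediate-early windows against 1.63% of all. Such matches describe letters in a window and not bound sites.

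NF-kB and feedback RNA made up a larger part of the transcriptome of neutrophil-like cells than of any of the other 8 classes compared. The 16 genes summed to 15090 CPM in the sham and 14050 CPM in the splenectomy library there, against 5785 and 7000 CPM in nonclassical monocyte-like, 3783 and 4760 CPM in monocyte-like, 4038 and 4584 CPM in macrophage-like and 2272 and 1948 CPM in B cell-like cells. Nfkbia, the IkB-alpha inhibitor, reached 7243 and 6516 CPM in neutrophil-like cells, at 1925 and 2364 CPM in monocyte-like cells and at 2064 and 2255 CPM in macrophage-like cells. Tnfaip2, a TNF-induced gene of membrane traffic, reached 1584 and 1641 CPM in neutrophil-like cells and at 169 and 286 CPM in monocyte-like cells. Nfkbiz, a nuclear IkB needed for a second wave of targets, reached 1490 and 1487 CPM in neutrophil-like cells and at 236 and 320 CPM in monocyte-like cells. The cytokine Tnf reached 1261 and 1135 CPM in neutrophil-like cells, 159 and 221 CPM in monocyte-like cells, 260 and 323 CPM in macrophage-like cells and 25.6 and 13.8 CPM in B cell-like cells. In neutrophil-like cells thinned to 2000 UMIs, Tnf was found in 63.2% of 2064 cells (61.1 to 65.3) and 58.5% of 1473 cells (55.9 to 61.0), and unthinned in 69.6% and 69.2%.

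Of the 16 genes, 9 were highest in neutrophil-like cells in both libraries: Nfkbia, Nfkbiz, Nfkbie, Nfkb2, Tnf, Tnfaip2, Tnfaip3, Birc3 and Zc3h12a. For 8 of them the interval overlapped that of the next class in neither library. Of the 5 genes for the factors themselves, Nfkb2 is in this list and the other 4 are not. Rel, the c-Rel subunit of lymphocytes and myeloid cells, was highest in nonclassical monocyte-like cells (857 and 876 CPM), followed by B cell-like cells in the sham library (820 and 650 CPM) and conventional dendritic cell-like cells in the splenectomy library (672 and 744 CPM), and stood at 424 and 387 CPM in neutrophil-like, 317 and 363 CPM in monocyte-like and 261 and 286 CPM in macrophage-like cells. Bcl3, an atypical IkB, and Traf1, an adaptor of TNF receptors, were also highest in nonclassical monocyte-like cells, with overlap to the next class for all 3 of these genes. Nonclassical monocyte-like cells numbered only 55 and 49, of which 24 and 27 lay near a cut. Rela stood between 35.8 and 86.6 CPM in every class of the sham library. For 4 members the highest class differed between the libraries: for Nfkb1, Rela and Relb the intervals of the leading classes overlapped in both, while Tnip1 was highest in neutrophil-like cells in the sham library, at 92.3 CPM, and in nonclassical monocyte-like cells in the splenectomy library, at 106 CPM with overlap to neutrophil-like cells.

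As a share of all UMIs, immediate-early RNA was highest in neutrophil-like and endothelial cell-like cells, and both of these classes led for members of their own. The 18 genes summed to 25802 and 22292 CPM in neutrophil-like cells, 18697 and 20490 CPM in endothelial cell-like cells, 10426 and 10060 CPM in macrophage-like cells and 7438 and 7168 CPM in monocyte-like cells. Neutrophil-like cells led in both libraries for 9 genes: Fosl2, Junb, Egr1, Ier5, Dusp1, Klf6, Nr4a1, Zfp36 and Btg2, and 7 of these did so without overlap. Junb stood at 5105 and 4803 CPM there and at 1852 and 1730 CPM in monocyte-like and 2188 and 2126 CPM in macrophage-like cells. The anti-proliferative gene Btg2 reached 4374 and 3963 CPM in neutrophil-like cells and below 1000 CPM in every other class of both libraries. Dusp1 stood at 3518 and 2670 CPM there and at 756 and 703 CPM in macrophage-like cells.

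Endothelial cell-like cells led for 6 genes without overlap of the counting intervals, Fos, Fosb, Jun, Atf3, Klf2 and Klf4. Fos led by only 1.19-fold in the sham library. Endothelial cell-like cells were few and varied widely. In the 59 and 53 of them thinned to 2000 UMIs, the variance of the immediate-early sum was 35.5 and 25.9 times its mean. Klf2 and Klf4 are known as factors of endothelium under flow. Jun stood at 2182 and 2305 CPM there, against 518 and 444 CPM in neutrophil-like and 549 and 537 CPM in macrophage-like cells. Fos stood at 1701 and 2393 CPM there, 1427 and 995 CPM in neutrophil-like, 711 and 601 CPM in monocyte-like and 1168 and 1010 CPM in macrophage-like cells. Klf4 was the member that set neutrophil-like cells apart in the other direction, at 22.7 and 22.0 CPM there against 410 and 419 CPM in monocyte-like cells. Jund, the AP-1 partner that is transcribed at rest, was highest in B cell-like cells at 3002 and 3054 CPM and stood at 674 and 779 CPM in monocyte-like and 787 and 916 CPM in macrophage-like cells. Dusp2, a phosphatase of activated lymphocytes, was highest in natural killer cell-like cells at 596 and 807 CPM, and Ier2 was highest in neutrophil-like cells of the sham library (656 CPM) and natural killer cell-like cells of the splenectomy library (730 CPM), with overlap in both. Natural killer cell-like cells numbered only 65 and 26.

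Heat shock RNA was lowest in neutrophil-like cells and highest in endothelial cell-like cells. The 11 genes summed to 1341 and 1099 CPM in neutrophil-like cells, against 4960 and 4207 CPM in monocyte-like, 5831 and 5464 CPM in macrophage-like and 9991 and 8635 CPM in endothelial cell-like cells. Of the 11 genes, 6 were lowest in neutrophil-like cells in both libraries, and 8 were highest in endothelial cell-like cells, 5 of these without overlap. Hsp90ab1, the constitutive HSP90, stood at 224 and 158 CPM in neutrophil-like, 1842 and 1462 CPM in monocyte-like and 2057 and 1798 CPM in macrophage-like cells. Hspa8, the constitutive HSP70, stood at 336 and 303, 1339 and 1213, and 1534 and 1583 CPM in the same classes, and Hsp90aa1, the inducible HSP90, at 245 and 221, 694 and 607, and 804 and 760 CPM. By ratio, Dnaja1, a J-domain partner of HSP70, was the member whose level in neutrophil-like cells (409 and 309 CPM) lay closest to that of monocyte-like cells (397 and 361 CPM). Dnajb1 went against the sum, with a higher CPM in neutrophil-like than in monocyte-like cells of both libraries. Reads of these chaperones can be split with processed pseudogenes of near-identical sequence, and their levels are uncertain to that extent.

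Hspa1a and Hspa1b encode the inducible HSP70 from neighbouring genes on chromosome 17 (34969190 to 34972156 and 34956436 to 34959238, minus strand, mm10). Their coding parts are 99.6% identical (1918 of 1926 bases) and the parts after the stop codon 62.6% (397 of 634 aligned bases), so the assignment of reads between the pair is uncertain. Hspa1a stood at 496 and 465 CPM in endothelial cell-like cells, 148 and 192 CPM in macrophage-like, 23.0 and 29.4 CPM in monocyte-like and 6.83 and 10.9 CPM in neutrophil-like cells. Hspa1b followed at 125 and 187, 53.9 and 61.7, 9.45 and 11.01, and 3.47 and 3.74 CPM. Both libraries thus gave the same order of these 4 classes for both genes. For Hspd1, Hspe1 and Hsph1 (HSP110) the highest class differed between the libraries. The intervals of the leading classes overlapped in both libraries for Hspd1 and Hspe1 and in the splenectomy library for Hsph1. Hspd1 was highest in endothelial cell-like cells of the sham library (241 CPM) and macrophage-like cells of the splenectomy library (212 CPM). Hspe1 was highest in conventional dendritic cell-like cells of the sham library (486 CPM) and macrophage-like cells of the splenectomy library (384 CPM). Hsph1 was highest in endothelial cell-like cells of the sham library (120 CPM, 50 UMIs) and B cell-like cells of the splenectomy library (51.2 CPM, 26 UMIs).

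**Figure D1:**
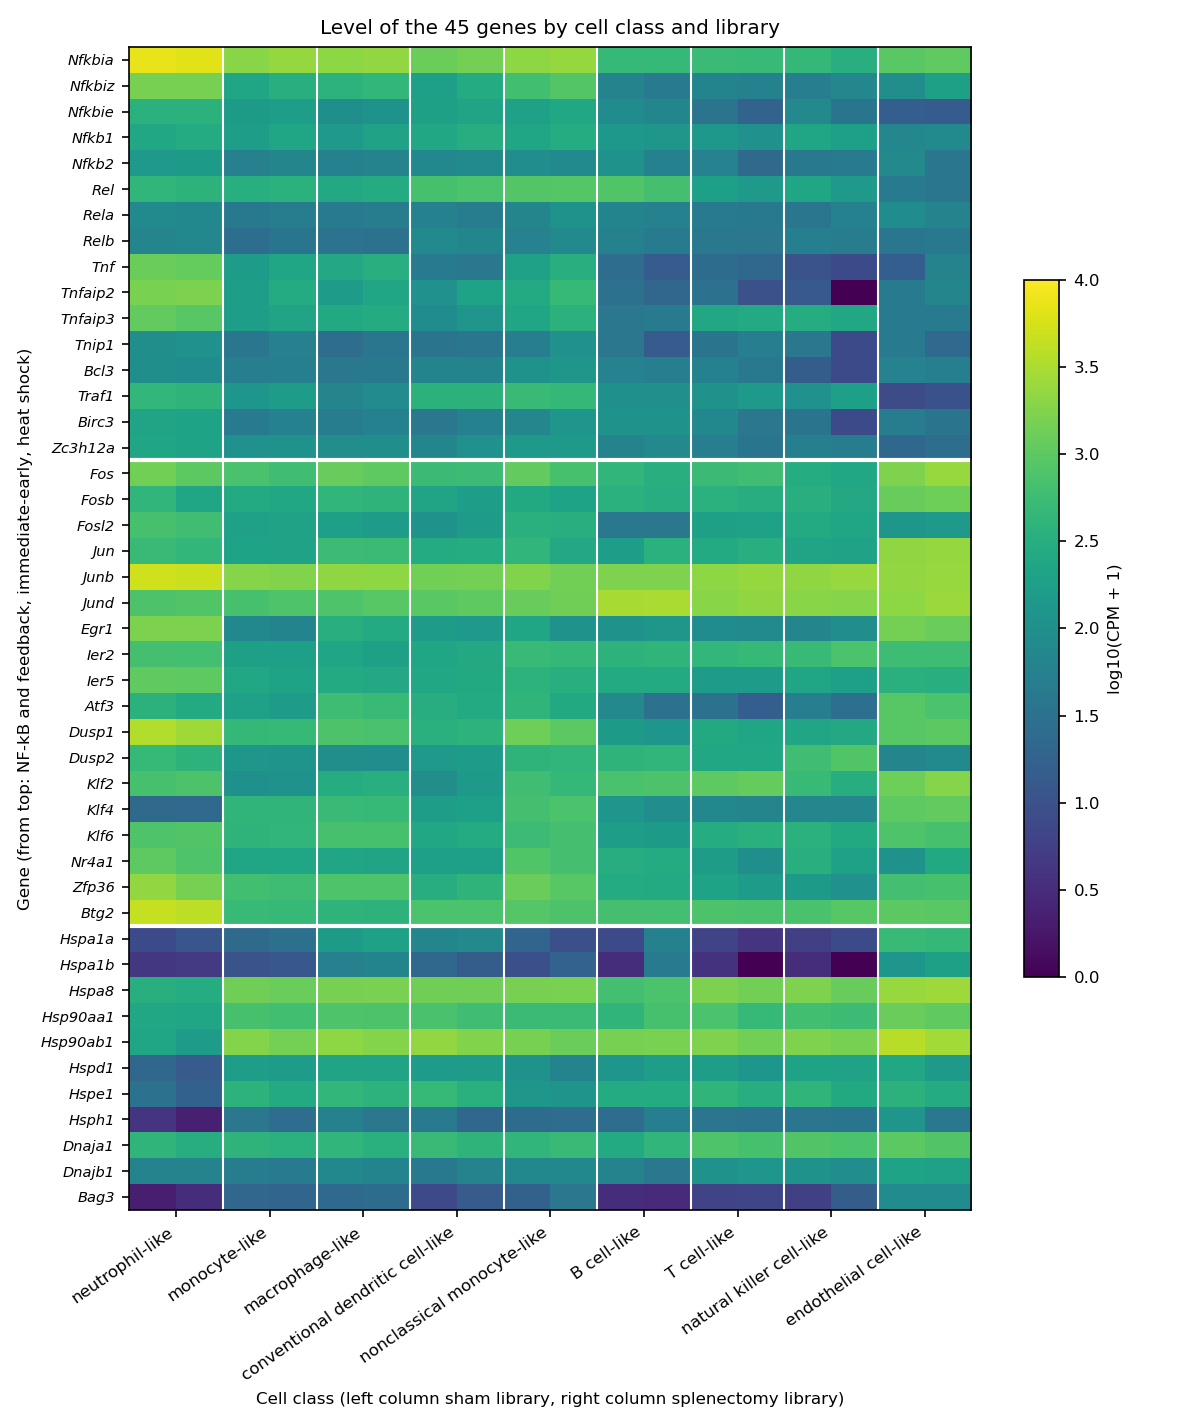
Level of each of the 45 genes (rows, from top NF-kB and feedback, immediate-early and heat shock) in 9 cell classes (column pairs, sham library left and splenectomy library right), as log10(CPM + 1). The neutrophil-like columns are bright for most NF-kB and immediate-early rows, with Nfkbia at 7243 and 6516 CPM, and dark for most heat shock rows.

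CPM gives shares of a cell's RNA, and neutrophil-like cells hold little of it: their medians were 3332 and 3780 UMIs, against 12903 and 12576 in monocyte-like and 13375 and 13995 in macrophage-like cells. As mean UMIs per cell, the NF-kB set stood at 55.1 and 57.2 in neutrophil-like, 49.9 and 61.6 in monocyte-like and 56.2 and 66.3 in macrophage-like cells. Nfkbia was then highest in macrophage-like cells in both libraries, and neutrophil-like cells led in both libraries for only 3 of the 45 genes, Tnfaip2, Dusp1 and Btg2. The immediate-early sum stood at 94.2 and 90.8 UMIs per neutrophil-like cell, 98.2 and 92.7 per monocyte-like cell and 145.1 and 145.4 per macrophage-like cell. The heat shock sum stood at 4.90 and 4.48 UMIs per neutrophil-like cell, 65.5 and 54.4 per monocyte-like cell and 81.1 and 79.0 per macrophage-like cell.

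The comparison of the libraries asks how removal of the spleen bears on these programmes in the reperfused heart. The NF-kB genes were higher in monocyte-like cells of the splenectomy library than in those of the sham library, by less than 1.5-fold for most members. All 16 had a log2 ratio of splenectomy over sham above 0, for 15 the interval lay above 0, and the median was 0.34. Of all 9093 features with at least 50 UMIs in the higher library, 49.6% stood above 0 and their median was -0.00. For 1638 of these features the interval lay above 0. Tnfaip2 rose from 169 to 286 CPM (log2 ratio 0.76, 0.70 to 0.82) and Tnip1 from 35.9 to 54.9 CPM (0.61, 0.48 to 0.75). These 2 were the members past 1.5-fold, 2 higher and 0 lower of 45, where 2.35% of all features were that much higher and 3.65% that much lower (6% together). Tnf stood at 159 and 221 CPM (0.48, 0.41 to 0.54), Nfkbiz at 236 and 320 CPM (0.44, 0.39 to 0.50), Nfkb1 at 171 and 225 CPM (0.40, 0.33 to 0.46), Tnfaip3 at 170 and 219 CPM (0.36, 0.30 to 0.43) and Nfkbia at 1925 and 2364 CPM (0.30, 0.28 to 0.32). The smallest ratios were those of Bcl3 (0.06, -0.07 to 0.19) and Zc3h12a (0.10, 0.02 to 0.19). Bcl3 stood above 0 in 8 of 10 alternatives (-0.050 to 0.092) and Zc3h12a in 9 of 10 (-0.012 to 0.16), and in the Chil3 cluster Bcl3 went from 107 to 79.6 CPM.

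In cells thinned to 4000 UMIs, Tnfaip2 was found in 35.8% of 1362 monocyte-like cells of the sham library (33.3 to 38.4) and 50.8% of 1376 of the splenectomy library (48.1 to 53.5), with 130 and 148 shallower cells left out. Unthinned the shares were 60.0% and 69.4%. Tnfaip3 was found in 38.2% (35.6 to 40.8) and 46.0% (43.3 to 48.7). As a background, 6.25% of 32 and 10.3% of 39 B cell-like cells at the same depth had a UMI of Tnfaip2, with 78 and 69 cells left out. Median depths before thinning were 3508 and 3707 UMIs in B cell-like cells. The monocyte-like class was made up differently in the libraries. The Ms4a4c, Fcgr1 and Apoc2 cluster held 42.8% of it in the sham and 19.8% in the splenectomy library, and the Chil3, Mgst1 and Dmkn cluster 12.7% and 27.4%. Over all cells of a cluster the NF-kB sum went from 3870 to 4815 CPM in the Ms4a4c cluster, 3048 to 4683 CPM in the Chil3 cluster, 4270 to 5021 CPM in the Areg, Spp1 and Fn1 cluster and 4044 to 4495 CPM in the H2-DMb1 cluster. All 4 monocyte-like clusters were thus higher in the splenectomy library. With the same mix of clusters in both libraries the median of the set was 0.32. Neutrophil markers summed to 902 CPM in monocyte-like cells of the sham and 2473 CPM in those of the splenectomy library, 6 of 9 higher and none at 0, against 112388 and 143539 CPM in neutrophil-like cells. S100a8 and S100a9 of that list are also expressed by classical monocytes. The median mitochondrial share in monocyte-like cells was 1.73% and 2.22%. The part of these differences in the result was not tested.

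Further NF-kB pathway and target genes were listed as well. In monocyte-like cells 5 of 42 passed 1.5-fold upward and 0 downward, and the median log2 ratio was 0.23. Of all features in this class 2.35% were that much higher and 3.65% that much lower. The 5 were the cytokines Il1a (173 and 323 CPM) and Il1b (4428 and 6970 CPM), the neutrophil-attracting chemokine Cxcl1 (286 and 494 CPM), cyclooxygenase-2 (Ptgs2, 771 and 1223 CPM) and the receptor Gpr84 (11.4 and 20.9 CPM). Of 33 further immediate-early genes 1 was higher, the growth arrest gene Gadd45a (23.4 and 57.5 CPM, log2 ratio 1.30), and 1 lower, Irf1 (55.2 and 34.8 CPM).

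In macrophage-like cells the NF-kB set moved the same way by less. Of its 16 genes, 15 stood above 0, for 11 the interval lay above 0, and the median was 0.14. The median of all 9200 features was -0.02, 44.8% of them stood above 0 and for 1232 the interval lay above 0. None of the 45 members passed 1.5-fold, where 2.61% of all features were that much higher and 2.65% that much lower (5.26% together). Tnfaip2 stood at 162 and 228 CPM (log2 ratio 0.49, 0.42 to 0.57), Nfkb1 at 141 and 198 CPM (0.49, 0.41 to 0.57), Tnip1 at 26.0 and 36.4 CPM (0.48, 0.29 to 0.67) and Traf1 at 64.5 and 84.7 CPM (0.39, 0.27 to 0.51). Relb was the member below 0 (-0.05, -0.23 to 0.14). An unnamed cluster led by Ccl24, Serpinb2 and Il6 held 2.49% of this class in the sham and 8.96% in the splenectomy library. Over all 60 and 172 cells of that cluster the NF-kB sum went down, from 6794 to 5906 CPM. The sum went up in the Lyve1, Fabp5 and Gdf15 clusters described below. With the same mix of clusters in both libraries the median of the set was 0.06. The part of the Ccl24 cluster in the result was not tested. Of the further NF-kB genes 3 of 42 were at least 1.5-fold higher and 0 lower, Il1a (179 and 306 CPM), Cxcl1 (544 and 928 CPM) and Gpr84 (12.5 and 21.3 CPM).

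In neutrophil-like cells the NF-kB set did not stand apart from other features. Its median was -0.09, as was that of all 6272 features, and 6 of 16 genes stood above 0. Scaled by the median of gene ratios, which sets the median of all features to 0, the set stood at 0.0046. Tnfaip3 went from 1108 to 921 CPM (-0.27, -0.31 to -0.22) and Nfkb1 from 252 to 292 CPM (0.21, 0.12 to 0.30), the lowest and highest ratios of the set. Of all 45 genes 42 had enough UMIs in this class, 1 was at least 1.5-fold higher and 3 were lower, where 3.01% of all features were that much higher and 7.96% that much lower (11% together). The 3 without enough UMIs were Hspa1b, Hsph1 and Bag3.

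Most immediate-early genes were lower in neutrophil-like cells of the splenectomy library, as were most features of this class, with Fosb past 1.5-fold. The median log2 ratio of the 18 genes was -0.18, 15 stood below 0 and for 13 the interval lay below 0. Of all 6272 features 63.3% stood below 0, and for 1613 the interval lay below 0. Scaled by the median of gene ratios, the median of the 18 genes was -0.090 and 8 of 18 stood above 0. Fosb, an AP-1 subunit, went from 436 to 234 CPM (-0.90, -0.99 to -0.81). It was found in 38.3% of 2064 sham cells thinned to 2000 UMIs (36.2 to 40.4) and in 25.3% of 1473 splenectomy cells (23.0 to 27.6), with 223 and 104 cells left out, and in 47.8% and 35.2% unthinned. B cell-like cells at 2000 UMIs, which also express Fosb, had it in 44% and 47%, so this class gave no background for the gene. Zfp36 went from 2228 to 1496 CPM (-0.57, -0.61 to -0.54), Fos from 1427 to 995 CPM (-0.52, -0.56 to -0.48), Dusp1 from 3518 to 2670 CPM (-0.40, -0.43 to -0.37), Atf3 from 365 to 277 CPM (-0.40, -0.48 to -0.31) and Nr4a1 from 1035 to 794 CPM (-0.38, -0.43 to -0.33). Klf2 was the member with the highest ratio (0.15, 0.09 to 0.20). Of 32 further immediate-early genes 2 were higher, Fosl1 (15.8 and 28.3 CPM) and Klf9 (7.2 and 11.2 CPM), and 1 lower, Ppp1r15a, a phosphatase subunit of the stress response (1114 and 740 CPM).

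These neutrophil-like classes differed in makeup. The Retnlg, Wfdc21 and Stfa2l1 cluster, named for granule and secreted proteins of younger neutrophils, held 15.7% of the class in the sham and 48.6% in the splenectomy library, and the Ifit1 cluster 27.5% and 11.03%. Fosb was lower in each of the 4 larger clusters, at 419 and 324 CPM in the Csf1 and Il23a cluster, 242 and 158 CPM in the Retnlg cluster, 488 and 267 CPM in the Ifit1 cluster and 591 and 397 CPM in the Nt5e cluster. With the same mix of clusters its log2 ratio was -0.58, just short of 1.5-fold, and the median of the set was -0.06. The clusters themselves differed more than the libraries did: the immediate-early sum was 29273 and 29363 CPM in the Csf1 cluster and 19120 and 18641 CPM in the Retnlg cluster, and the NF-kB sum 18193 and 19092 CPM in the Csf1 cluster and 10062 and 9187 CPM in the Nt5e cluster.

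In monocyte-like and macrophage-like cells the immediate-early medians were -0.06 and -0.07. In monocyte-like cells the median turned to 0.03 when each cell had equal weight or when the mix of clusters was held the same. In macrophage-like cells the immediate-early sum, 10426 and 10060 CPM, was 10527 and 10760 CPM with classes taken from clusters, so its direction depends on how the class is drawn. Jund went against the set in both, at 674 and 779 CPM in monocyte-like cells (0.21, 0.18 to 0.24) and 787 and 916 CPM in macrophage-like cells (0.22, 0.18 to 0.25). Fos stood at 711 and 601 CPM in monocyte-like (-0.24, -0.28 to -0.21) and 1168 and 1010 CPM in macrophage-like cells (-0.21, -0.24 to -0.18).

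Heat shock medians were below 0 in all 3 classes, at -0.28 in neutrophil-like (8 genes), -0.13 in monocyte-like and -0.08 in macrophage-like cells. Among all features 63.3%, 50.4% and 55.2% stood below 0 in these classes. Of the heat shock genes measured 7 of 8, 9 of 11 and 7 of 11 did, and the inducible HSP70 genes were among those above 0, except that Hspa1b was not measured in neutrophil-like cells. With the same mix of clusters the median in neutrophil-like cells was -0.034, and in thinned cells that of monocyte-like cells was -0.23. In monocyte-like cells Hsph1 went from 37.6 to 25.6 CPM (-0.56, -0.72 to -0.39), Hspe1 from 382 to 274 CPM (-0.48, -0.53 to -0.43) and Hsp90ab1 from 1842 to 1462 CPM (-0.33, -0.36 to -0.31), while Hspa1a went from 23.0 to 29.4 CPM (0.36, 0.18 to 0.54). The direction of Hspa1a in monocyte-like cells was not stable: it stood above 0 in 6 of 10 alternatives, which ranged from -0.23 in thinned cells to 0.43 with equal weight per cell, and that of Hspa1b in 7 of 10. In macrophage-like cells Hsph1 went from 55.6 to 38.1 CPM (-0.54, -0.70 to -0.39), Dnaja1 from 421 to 347 CPM (-0.28, -0.33 to -0.23) and Hspa1a from 148 to 192 CPM (0.38, 0.30 to 0.46; 0.15 with the same mix of clusters). The share of macrophage-like cells with an Hspa1a UMI at a depth of 4000 was 21.8% of 992 (19.2 to 24.5) and 22.9% of 855 (20.1 to 25.9), with 174 and 127 cells left out and overlapping intervals. In macrophage-like cells Hspa8 (0.05, 0.02 to 0.07) and the co-chaperone Bag3 (0.12) also stood above 0, though the interval of Bag3 included 0. Of the 4 heat shock genes above 0 there, 3 had an interval above 0. Of further chaperone genes 0 were higher in these 3 classes, and 1 of 26 in neutrophil-like, 1 of 32 in monocyte-like and 0 of 33 in macrophage-like cells were lower. Of all features 3.01%, 2.35% and 2.61% were at least 1.5-fold higher in these classes, and 7.96%, 3.65% and 2.65% at least 1.5-fold lower.

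The heat shock calls of neutrophil-like cells rest on few UMIs and few cells. Hspe1 went from 31.4 to 16.2 CPM (-0.95, -1.30 to -0.62; 262 and 104 UMIs) and Hspd1 from 20.2 to 13.1 CPM (-0.63, -1.03 to -0.24; 169 and 84 UMIs), and the 5 cells with most UMIs held 33.6% and 27.8% of them in the sham library. Hspa1a went from 6.83 to 10.9 CPM (0.67, 0.15 to 1.21; 57 and 70 UMIs), and 5 cells held 54.3% of its UMIs in the splenectomy library. With the same mix of clusters, which leaves out clusters holding under 20 of these cells in a library, the ratios were -0.06, -0.01 and 0.04. With classes taken from clusters Hspa1a turned to -0.07. Macrophage markers summed to 1473 and 2076 CPM in neutrophil-like cells, 9 of 12 higher in the splenectomy library, against 29746 and 29303 CPM in macrophage-like cells, and their part in these values was not tested.

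**Figure D2:**
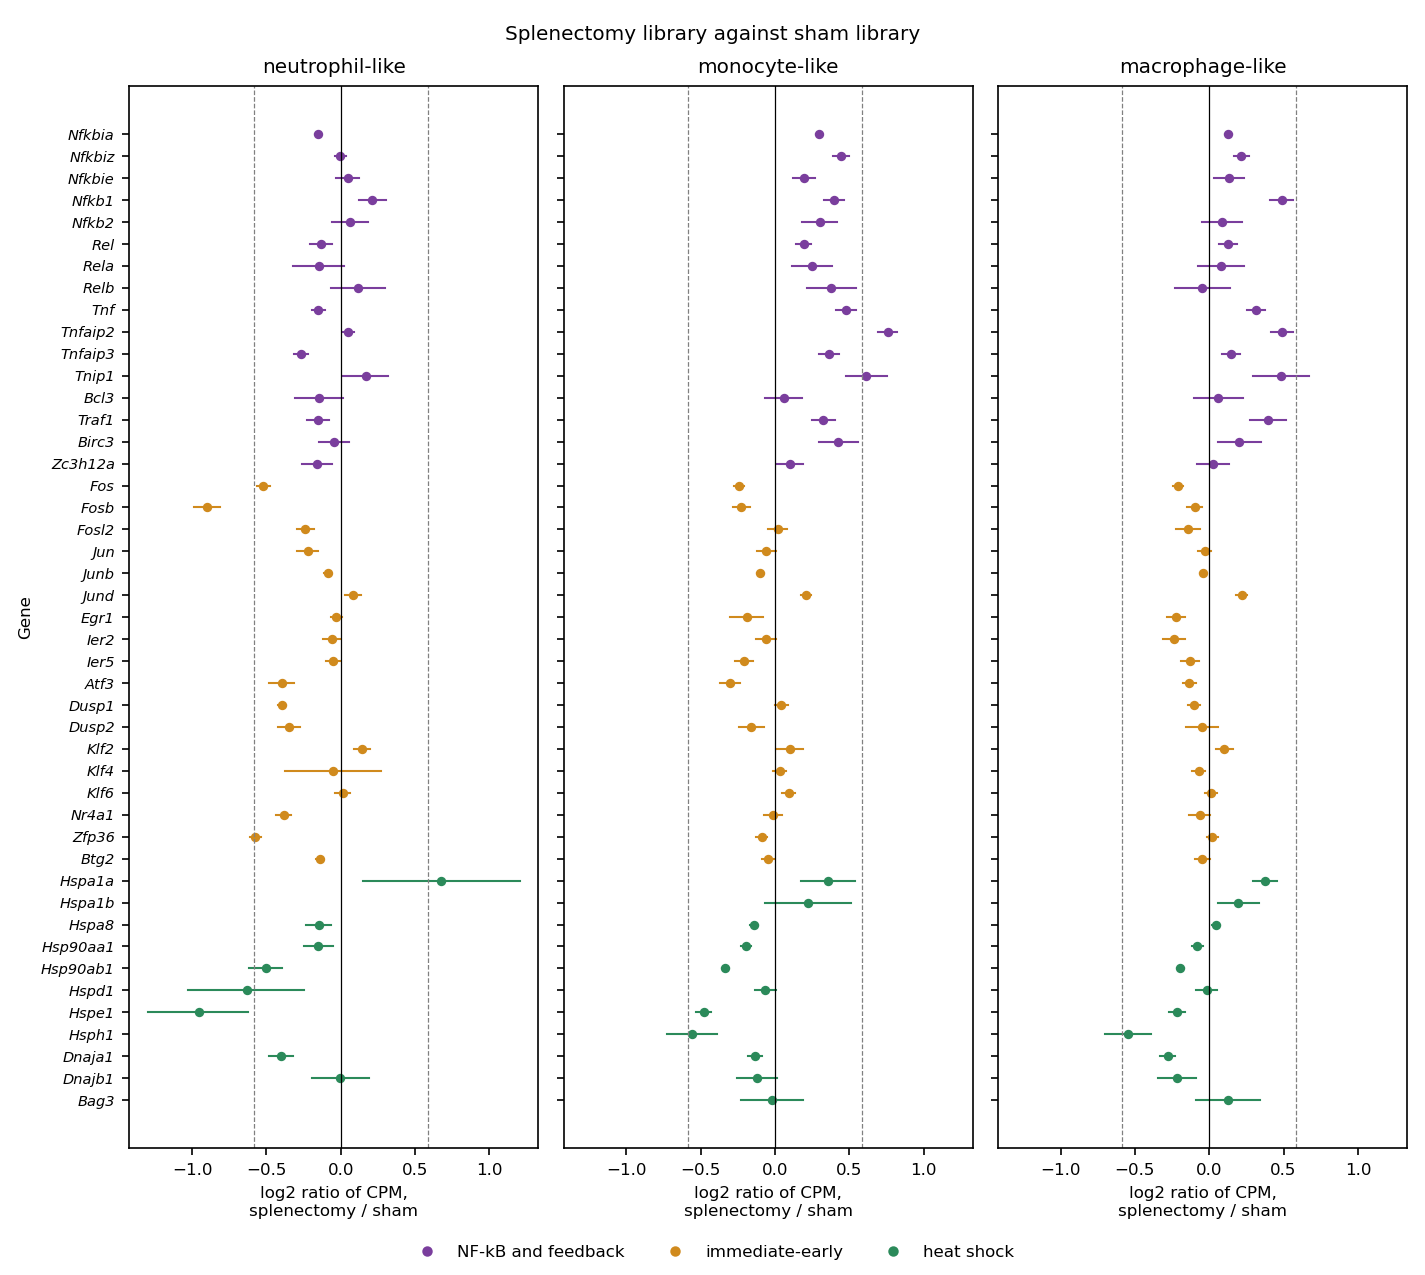
Log2 ratio of CPM, splenectomy over sham, of each gene in 3 cell classes, with exact 95% counting intervals (lines) and dashed lines at 1.5-fold. Genes with under 50 UMIs in the higher library are left out. All 16 NF-kB points lie above 0 in monocyte-like cells, with Tnfaip2 at 0.76, and Fosb lies at -0.90 in neutrophil-like cells.

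Clusters of macrophage-like cells differed widely in stress genes. Values are over all cells of a cluster. The cluster led by Lyve1, Cbr2 and Folr2, genes known from resident cardiac macrophages, held 206 and 186 cells, and the cluster led by Fabp5, Pf4 and Spp1 held 504 and 312. The immediate-early sum was 23214 and 21295 CPM in the Lyve1 cluster and 7238 and 6919 CPM in the Fabp5 cluster, with the Gdf15 cluster between them at 12359 and 11022 CPM. Fos stood at 3034 and 2573 CPM against 679 and 532 CPM, Jun at 2266 and 1939 CPM against 228 and 190 CPM, Egr1 at 1317 and 1061 CPM against 102 and 68.5 CPM and Klf2 at 1211 and 1239 CPM against 95.6 and 79.9 CPM. Hspa1a stood at 750 and 882 CPM in the Lyve1 cluster, 210 and 243 CPM in the Gdf15 cluster and 20.04 and 39.8 CPM in the Fabp5 cluster. The NF-kB sum was 3858 and 4126 CPM in the Lyve1, 3739 and 4186 CPM in the Fabp5 and 4727 and 5281 CPM in the Gdf15 cluster. It was 2440 and 3244 CPM in a further macrophage-like cluster led by Pf4 and C1qb, with a median of 1323 UMIs per cell. The 45 genes and the further pathway genes listed were left out of the clustering, but other genes that vary with them were not.

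At 2000 UMIs Hspa1a was found in 57.6% of 203 cells of the Lyve1 cluster in the sham library (50.5 to 64.5) and 51.4% of 181 in the splenectomy library (43.9 to 58.9). In the Fabp5 cluster it was found in 4.77% of 503 (3.08 to 7.02) and 5.13% of 312 cells (2.96 to 8.19), and in the B cell-like cluster in 1 of 99 and 1 of 100 cells. Egr1 was found in 70.9% and 69.6% of Lyve1 cluster cells and in 15.5% and 13.5% of Fabp5 cluster cells. An unnamed cluster led by Ccnb1ip1, Rmrp and Hist1h1e, with a median of 1587 UMIs per cell, also had a high immediate-early sum, at 21192 and 23395 CPM, with Jun at 3040 and 3555 CPM and Hspa1a at 305 and 381 CPM. Immediate-early RNA is known to rise while tissue is taken apart, no undigested tissue was analysed here, and the part of cell isolation in these levels was not tested.

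**Figure D3:**
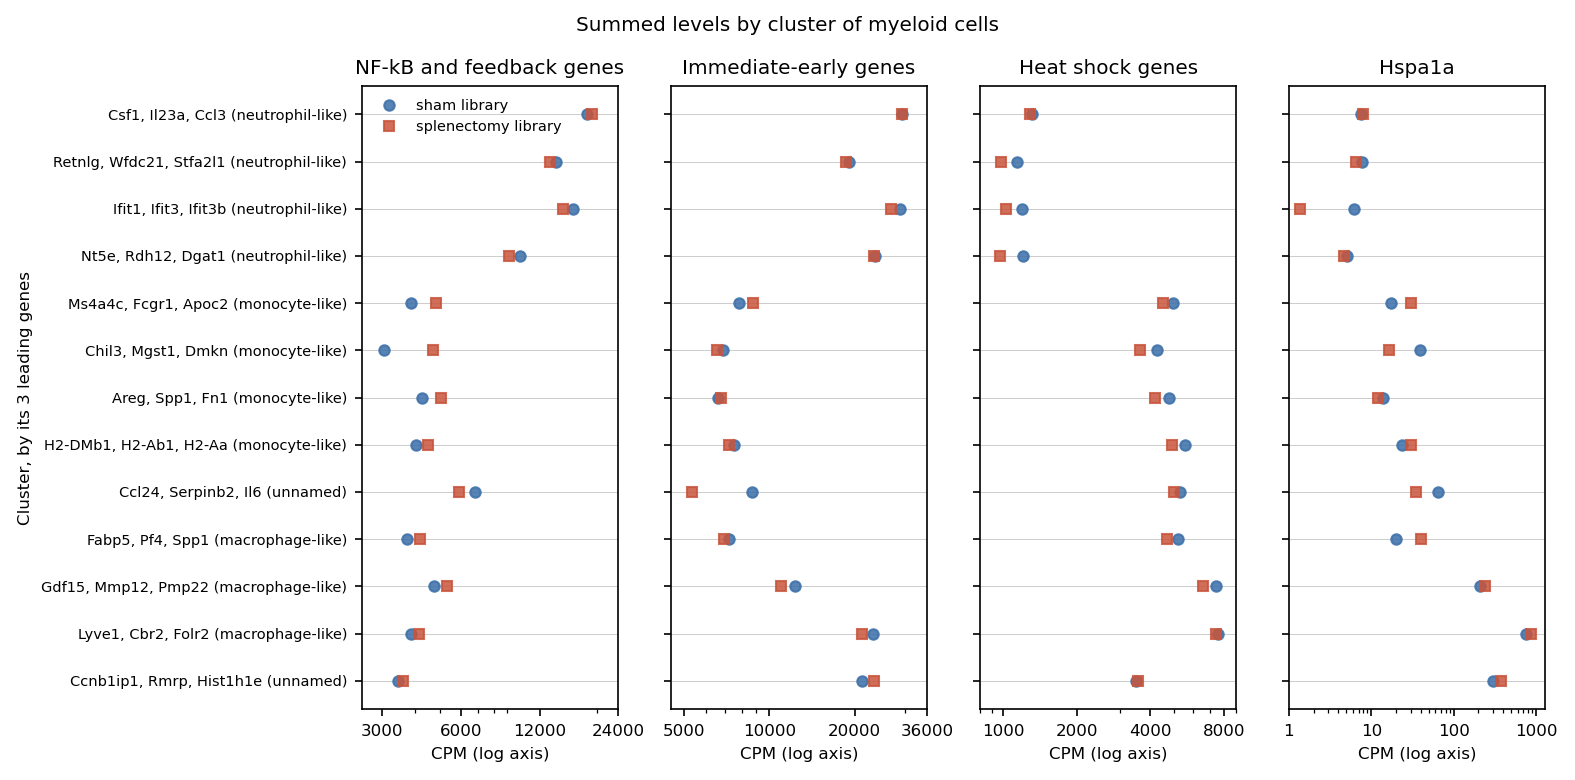
Summed CPM of the 3 gene sets and CPM of Hspa1a in 13 clusters of myeloid and unnamed cells (rows, by their 3 leading genes), on log axes, for the sham library (circles) and the splenectomy library (squares). Immediate-early RNA and Hspa1a are high in the Lyve1 cluster (23214 and 21295 CPM, and 750 and 882 CPM) and low in the Fabp5 cluster, and NF-kB RNA shifts to the right in the 4 monocyte-like clusters.

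The spread over cells differed between the sets. At 4000 UMIs a macrophage-like cell held a median of 34 and 31 immediate-early UMIs, with 90th percentiles of 110 and 101 and a variance 32.6 and 39.0 times the mean. In monocyte-like cells the median was 27 and 26, the 90th percentile 48 and 46 and the ratio of variance to mean 8.57 and 8.93. NF-kB UMIs had medians of 13 and 19 per monocyte-like cell, 16 and 18 per macrophage-like cell and, in the 624 and 655 neutrophil-like cells of this depth, 60 and 50. Heat shock UMIs had medians of 19 and 16 in monocyte-like and 21 and 19 in macrophage-like cells.

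Variation from cell to cell is given as Spearman's rho over cells of a class thinned to 1 depth, which share a library and a total. Most pairs of 1 set were weakly related. The median over pairs within the NF-kB set was 0.11 and 0.12 in neutrophil-like cells, within the immediate-early set 0.074 and 0.10 there and 0.26 and 0.27 in macrophage-like cells, and within the heat shock set 0.039 and 0.023 in neutrophil-like, 0.041 and 0.019 in monocyte-like and 0.14 and 0.11 in macrophage-like cells. Medians over pairs between sets lay from 0.0050 to 0.035. The pairs named next are among the highest. In neutrophil-like cells rho was 0.53 in both libraries for Nfkbia with Tnfaip3, and 0.53 and 0.52 for Nfkbia with Tnf. The windows of Nfkbia and Tnfaip3 held the NF-kB consensus, while the matched window of Tnf did not. A relation of promoter letters to these values was not tested. In monocyte-like cells rho was 0.46 and 0.50 for Nfkbia with Nfkbiz. In macrophage-like cells it was 0.54 in both for Fos with Atf3 and 0.55 and 0.54 for Jun with Atf3, and 0.48 and 0.49 for Atf3 with Hspa1a across sets. Of the sums, NF-kB with immediate-early gave 0.30 and 0.30 in neutrophil-like (2064 and 1473 cells), 0.29 and 0.15 in monocyte-like (1362 and 1376) and 0.34 and 0.26 in macrophage-like cells (992 and 855). NF-kB with heat shock lay between -0.06 and 0.06 in all 6 cases, and immediate-early with heat shock reached 0.28 and 0.26 in macrophage-like cells.

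**Figure D4:**
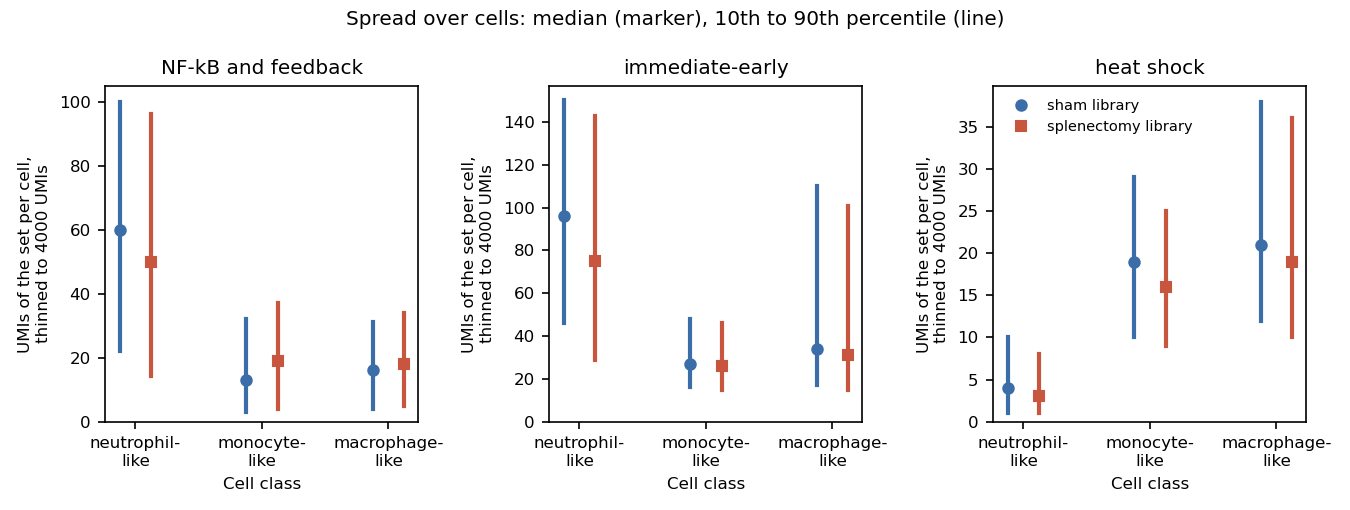
UMIs of each gene set per cell after thinning to 4000 UMIs, with the median over cells (marker) and the 10th to 90th percentile (line), in 3 cell classes of the sham (circles) and splenectomy (squares) libraries. The immediate-early panel shows the long upper range of macrophage-like cells, to 110 and 101 UMIs at the 90th percentile with medians of 34 and 31.

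The smaller classes gave few members with enough UMIs. In conventional dendritic cell-like cells (103 and 110 cells) 43 of 45 were measured, 4 were at least 1.5-fold higher and 1 lower, where 5.73% of all features were higher and 4.06% lower (9.79% together). Tnfaip2 went from 106 to 211 CPM (log2 ratio 0.99, 0.70 to 1.28), Nfkbiz from 177 to 284 CPM (0.68, 0.45 to 0.91), Zc3h12a from 68.8 to 105 CPM (0.61) and Dnajb1 from 39.8 to 61.6 CPM (0.63, 0.13 to 1.14), while Hsph1 went from 45.6 to 21.0 CPM (-1.12, -1.80 to -0.47). Further NF-kB genes were higher there in 7 of 31 and lower in 0, among them the chemokine Cxcl2 (984 and 2535 CPM) and Ptgs2 (83.2 and 223 CPM), and the heme oxygenase Hmox1 went from 73.8 to 197 CPM and Ier3 from 177 to 357 CPM. Of the Cxcl2 UMIs 5 cells held 70.1% and 62.6%. Neutrophil markers summed to 609 and 683 CPM in this class, 7 of 9 higher in the splenectomy library, and their part in these values was not tested. Of the gated cells 47 and 37 lay near a cut (45.6% and 33.6%), and 7 and 15 fell in monocyte-like clusters. In the Cd209a and Ccl17 cluster of conventional dendritic cell-like cells (185 and 177 cells) the 4 higher members were below 1.5-fold: Tnfaip2 stood at 104 and 133 CPM, Nfkbiz at 128 and 142 CPM, Zc3h12a at 53.3 and 67.0 CPM and Dnajb1 at 32.3 and 43.4 CPM. In endothelial cell-like cells Hsph1 went from 120 to 38.4 CPM (-1.65, -2.54 to -0.83), Hspd1 from 241 to 142 CPM (-0.76), Nfkbiz from 93.8 to 185 CPM (0.98) and Nr4a1 from 113 to 264 CPM (1.22), 2 higher and 2 lower of 29 measured, where 4.77% of features were higher and 6.72% lower (11.5% together). In B cell-like cells 3 of 27 were higher, where 6.5% of features were higher and 2.83% lower (9.33% together): Jun (177 and 353 CPM), Hsp90aa1 (416 and 690 CPM) and Dnaja1 (279 and 429 CPM). In the splenectomy library 5 of its 108 cells held 35.8%, 39.1% and 45.4% of their UMIs, and all 29 UMIs of Hspa1a came from 1 of these 108 cells. In T cell-like cells Nr4a1 and Hsp90aa1 were lower, 2 of 24, where 5.68% of features were higher and 10.4% lower (16.1% together). Of further NF-kB genes Il1b (519 and 126 CPM), Cxcl2 (885 and 387 CPM) and Ccl4 (361 and 155 CPM) were lower there, and 5 cells held 82.6%, 75.8% and 95.3% of their UMIs in the sham library.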

How the data were processed

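Both count matrices were used as deposited; per the file headers they hold UMI counts per gene and barcode from Cell Ranger 5.0.0, and per the submitters' processing notes reads were aligned to mm10 with STAR. The gene annotation used for counting is not known from these sources. The group of a library was read from its title. The members and lists were chosen with earlier results of these data known.

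Cells with under 200 genes or over 20% mitochondrial UMIs were left out. Scrublet (scanpy 1.11.5) scored doublets. Its own threshold called 131 and only 3 cells, so the highest scores were removed at 8 per 1000 for each 1000 cells, 302 and 200 cells. A cell took the class with the highest mean log marker level among 16 lists, if this was at least 0.5 (1.5 for neutrophils) with 5 marker UMIs. Conventional dendritic cell-like and nonclassical monocyte-like cells were instead set by marker rate, at least 5 and 10 per 10000 UMIs with 3 and 5 UMIs. This rate overrode the highest level, except in cells that led for neutrophil, lymphocyte, endothelial, fibroblast or cardiomyocyte markers. Leiden clusters (leidenalg 0.10.2), built without the 45 genes and the further pathway genes listed, served as an alternative and for description. UMIs were summed per class and divided by its total. Ratios have exact intervals for 2 Poisson counts, need 50 cells in both libraries, and count as changed at 1.5-fold with 50 UMIs in the higher library. Named were the members past that size in the 3 large classes, the 3 highest of each set there, Hspa1a and Hspa1b, members whose highest class differed between libraries, and further pathway genes past 2-fold with 100 UMIs. Other names are examples chosen after their values were seen. The ratio was tested on simulated counts drawn from the same Poisson model that the intervals assume. That test cannot show whether the intervals hold for real counts, which vary more from cell to cell. Software was python 3.11.15, scipy 1.17.1 and numpy 2.4.6.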

Additional observations from a re-analysis of the deposited data

Results flagged for a closer look

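Nr4a1 was at least 1.5-fold higher in endothelial cell-like cells of the splenectomy library (log2 ratio 1.22) and at least 1.5-fold lower in its T cell-like cells (-0.73), a gap of 1.96. Hsp90aa1 was higher in B cell-like (0.73) and lower in T cell-like cells (-0.63), a gap of 1.36. These genes were singled out because the ratio of the libraries pointed opposite ways in 2 cell classes past the size counted as changed. With 1 library per group the difference was not tested. The 5 cells with most UMIs held 58.1% of the Nr4a1 UMIs of endothelial cell-like cells in the splenectomy library, 50.9% of those of T cell-like cells in the sham library, and 55.8% of the Hsp90aa1 UMIs of T cell-like cells in the sham library.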

How the results depend on the processing

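No paired analysis was possible because each group is 1 library, and for the same reason no replicate could be left out. The mix and low-UMI cluster alternatives were chosen after seeing the data. Of 99 medians 91, of 72 counts of changed members 53 and of 1320 single log2 ratios 1065 moved by less than their interval or, for counts, 1.5 times, but so did only 2 of 18 summed levels and 0 of 6 shares; the cause of other moves was not tested. The NF-kB median of monocyte-like cells kept its sign, at 0.29 to 0.35, as did that of macrophage-like cells, at 0.06 to 0.16. In neutrophil-like cells 1 member was higher in the main analysis: 2 were with a minimum of 10 UMIs and 0 at 2-fold, with cluster classes, with equal weight per cell, thinned or with the same mix of clusters. Lower were 3, against 0 at 2-fold, 1 with cluster classes, 1 thinned and 0 with the same mix. In monocyte-like cells 2 were higher, against 0 at 2-fold and 1 with cluster classes, and 0 lower, against 1 with equal weight, 2 thinned and 1 with the same mix. In macrophage-like cells 0 were higher, against 1 with cluster classes and 1 thinned, and 0 lower, against 1 with cluster classes and 1 without cells near a cut. The immediate-early median of neutrophil-like cells (-0.18) became -0.090 scaled by the median of gene ratios and -0.061 with the same mix, and that of monocyte-like cells (-0.06) 0.027 with equal weight and 0.026 with the same mix. The heat shock median became -0.034 with the same mix in neutrophil-like cells (-0.28), -0.23 thinned in monocyte-like cells (-0.13), and -0.12 with cluster classes and -0.12 with the same mix in macrophage-like cells (-0.08). Hspa1a in neutrophil-like cells turned to -0.066 with cluster classes. With cluster classes the summed CPM in neutrophil-like cells was 15361 and 14312 for NF-kB, 26290 and 22609 for immediate-early and 1229 and 1054 for heat shock genes. In monocyte-like cells it was 3856 and 4795 for NF-kB and 7486 and 7234 for immediate-early genes. In macrophage-like cells it was 3896 and 4410, 10527 and 10760, and 5926 and 5626, so that the order of the libraries turned for immediate-early genes there. Unthinned, Tnf was found in 69.6% and 69.2% of neutrophil-like, Tnfaip3 in 59.3% and 64.8% of monocyte-like and Hspa1a in 33.7% and 37.4% of macrophage-like cells.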
